A study of Mus musculus with 6 samples.

Results

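The genes described here encode parts of the motile cilium and regulators of the multiciliated airway cell. They were taken from a list of 37 symbols, of which 35 matched the symbol column of a lung RNA-seq table of 41388 genes. The other 2, Dnai1 and Dnai2, were found under their older symbols Dnaic1 and Dnaic2 and are described apart from the 35. The lungs came from adult mice at ZT7, that is 7 h after lights on. There were 3 wild type C57BL/6J libraries (WT1 to WT3) and 3 Zpbp2 knockout libraries (KO1 to KO3). The KO strain, B6.129S7-Zpbp2tmZuk/Mmjax, lacks the first exons of Zpbp2 (1 to 3) in all cells and is kept on C57BL/6J. Controls were born in the same colony, and the sex of each animal was not given for these libraries. The comparison asks whether RNA of these genes in whole lung differed between the genotypes.

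Multiciliated cells line the airways and beat their cilia to move mucus. Each motile cilium holds a ring of doublet microtubules around a central pair, and dynein arms on the doublets drive the bending. Radial spokes, nexin links and a molecular ruler set the order of these parts. Mcidas and Ccno act early in multiciliated cell formation, and Foxj1 and the RFX factors switch on the genes of the axoneme.

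RFX proteins bind the X-box, which is built from GTTGCC-like units, so promoter sequence of 5 genes is shown. RefSeq promoters (GRCm38.p6, 250 bases before to 50 after the start) were at hand for 30 of the 37 listed genes, in 34 windows. GTTGCC, or GGCAAC on the other strand, was in 16 of the 34 windows (47.1%), against 12.5% of 32851 promoters of the same length. By gene it was in 15 of the 30 (14.1% of 27025 genes). By role it ran from 0 of the 6 dynein heavy chain genes with a window to 3 of 4 tektin or tubulin genes and 4 of 4 regulators. The difference between roles was not tested. The paired X-box, GTTNCC and GGNAAC parted by 2 bases on either strand, was in 1 window, at Pifo (2.94%, against 0.450% of all). There it overlaps a single unit. Another Pifo window, chr3:106014597-106014896, covers the annotated 5′ end of the gene (106014646) and has neither form. The window printed for Pifo is the one with the match. The forkhead core GTAAACA was in 0 of 34 windows, against 3.65% of all. A match is a description of the letters, not a binding site, and no match says only that these letters are not in the window. The sequences are the 120 bases before the start, 5′ to 3′ on the strand of the gene, with the single unit, or in Pifo the paired form, in capitals. Those of Dynlrb2 and Pifo are from short genes, Drc1 from a linker gene and Hydin from a long gene, and Dnah5 has neither form. The first capital lies 51 bases before the start in Dynlrb2, 20 in Pifo, 11 in Drc1 and 13 in Hydin. The windows are chr8:116504895-116505014 (plus strand), chr3:106001498-106001617 (minus strand), chr5:30281273-30281392 (plus strand), chr8:110266857-110266976 (plus strand) and chr15:28203646-28203765 (plus strand).
Dynlrb2: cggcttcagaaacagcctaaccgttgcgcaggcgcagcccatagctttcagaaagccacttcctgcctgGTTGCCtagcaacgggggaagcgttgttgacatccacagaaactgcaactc
Pifo: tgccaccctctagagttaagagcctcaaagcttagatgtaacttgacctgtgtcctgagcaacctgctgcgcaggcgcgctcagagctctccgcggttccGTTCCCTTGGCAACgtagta
Drc1: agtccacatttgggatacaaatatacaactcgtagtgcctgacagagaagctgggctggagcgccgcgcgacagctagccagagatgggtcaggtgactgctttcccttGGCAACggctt
Hydin: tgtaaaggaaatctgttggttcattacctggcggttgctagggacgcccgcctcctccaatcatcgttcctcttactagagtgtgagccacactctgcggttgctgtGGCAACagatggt
Dnah5: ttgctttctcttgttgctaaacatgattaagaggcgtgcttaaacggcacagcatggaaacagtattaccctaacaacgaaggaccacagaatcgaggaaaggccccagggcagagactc

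Libraries held 59134950 to 71354388 counts, and the 35 genes took 0.275% (KO1) to 0.398% (KO2) of them. The lung markers Sftpc (12103 to 12524 CPM in WT, 18211 to 19536 CPM in KO), Scgb1a1 (23360.0 to 27438 and 32061 to 42765 CPM) and Ager (2035 to 2087 and 2764 to 2874 CPM) were abundant in all 6 libraries, and their KO ranges lay above their WT ranges, as in 20.0% of all genes. Of the 10 alveolar type 1 genes, to which Ager belongs, 3 rose (Ager, Hopx and Aqp5; 1.38% of all genes), and 4 had a positive and 6 a negative fold change (median -0.04). Zpbp2 had 20, 15 and 7 counts in the WT libraries and 1, 0 and 0 in KO1 to KO3. KO2 and KO3 carry different animal codes, yet over the member genes their squared differences were 2.20 times counting noise, against 16.0 to 65.0 times in WT pairs and 335 to 351 times between either of them and KO1. They were therefore summed into 1 sample, which gives 3 WT and 2 KO samples, and p-values measure only the spread between these samples. In a principal component analysis, WT3 and KO1 stood apart from the other libraries along the first component (66.5% of variance), and the genotypes separated along the second (21.9%). CPM below are counts per 1e6 reads on TMM-scaled library sizes.

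**Figure D1:**
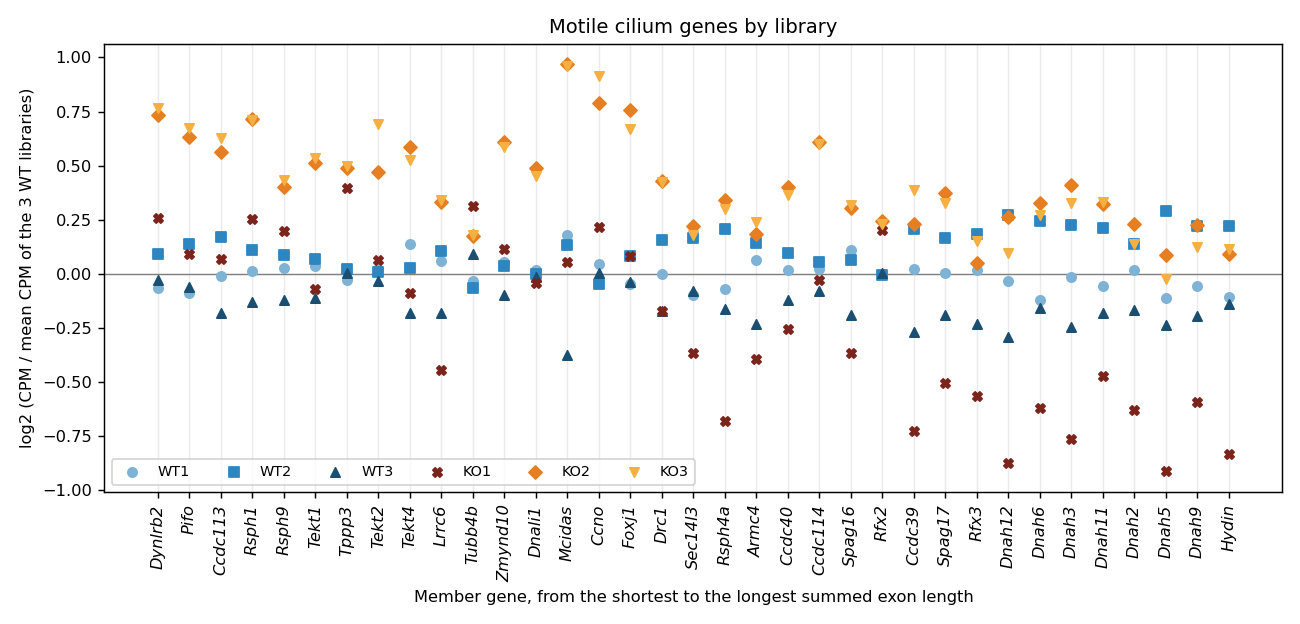
Level of each of the 35 genes in each library, as log2 of its CPM over the mean of the 3 WT libraries (y axis), with genes ordered from the shortest to the longest summed exon length (x axis). KO2 and KO3 sit above all WT libraries for 30 genes, whereas KO1 sits below all WT libraries for 19 genes, including all 7 dynein heavy chains.

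Of the 35 genes, 1 rose in KO and 0 fell at an adjusted p of 0.05 (edgeR quasi-likelihood test, Benjamini-Hochberg adjustment over 18660 genes). Over all genes tested, 2.28% passed in either direction, 1.38% higher and 0.906% lower. Without adjustment, at p up to 0.05, KO was higher for 7 of the 35 (20.0%) and lower for 0, against 13.9% and 13.4% of all genes, or 27.3% in either direction. The fitted log2 fold change was positive for 21 (60.0%; 52.2% of all genes) and negative for 14, with a median of 0.16 and a range of -0.36 to 0.59, beside a median of 0.02 over all genes. Leaving out WT3 gave a median of 0.080. In whole lung, a change in the number of ciliated cells, in RNA per ciliated cell or in RNA of other lung cells cannot be told apart.

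Among the regulators, Foxj1, the master factor of motile ciliogenesis, had 99.9, 109 and 100.5 CPM in WT1 to WT3 and 109, 174 and 164 CPM in KO1 to KO3. KO1 lay within the WT range, while KO2 and KO3 were above it. The log2 fold change was 0.44 (SE 0.19, adjusted p = 0.219 by edgeR). It was 0.71 without KO1 and 0.079 with KO1 as the only KO sample. Ccno, a cyclin-like gene needed for centriole amplification, had 2.73, 2.56 and 2.65 CPM in WT and 3.08, 4.58 and 4.98 CPM in KO. The genotypes did not overlap, and the log2 fold change was 0.58 (SE 0.22, adjusted p = 0.173). Mcidas, which starts the multiciliated program, was the rarest of the genes with 43, 40 and 24 counts in WT and 34, 63 and 59 counts in KO. Its log2 fold change of 0.59 (SE 0.35, adjusted p = 0.346) was the highest of the 35, but KO1 lay within the WT range. Without KO1 the log2 fold change of Mcidas was 0.96, and with KO1 as the only KO sample 0.051.

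Of the RFX factors, Rfx2 had 28.3, 28.2 and 28.3 CPM in WT and 32.6, 33.5 and 33.2 CPM in KO. The KO libraries lay above the WT ones with little spread within each genotype, and the log2 fold change was 0.23 (SE 0.05, adjusted p = 0.0696). Rfx3 had 21.4, 24.0 and 18.0 CPM in WT and 14.3, 21.9 and 23.5 CPM in KO. KO1 was the lowest of the 6 libraries, and KO2 and KO3 lay within the WT range. The log2 fold change of Rfx3 was -0.19 (SE 0.23, adjusted p = 0.658).

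The dynein heavy chains, the motor subunits of the arms, had a median log2 fold change of -0.15, and 0 of 7 passed the test either with adjustment or at an unadjusted p of 0.05, with DESeq2 also calling 0 (2.28%, 27.3% and 21% of all genes). All 7 fitted values were negative, from -0.36 to -0.01. Their median was -0.035 without WT2 and -0.24 without WT3. Dnah5, an outer arm motor, had 86.4, 114 and 79.3 CPM in WT and 49.5, 99.0 and 91.9 CPM in KO. KO1 was below every WT library and the other KO libraries lay within the WT range. Its log2 fold change was -0.36 (SE 0.32, adjusted p = 0.529), the lowest of the 35.

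Dnah9, another outer arm motor, had 54.1, 65.6 and 49.2 CPM in WT and 37.3, 65.7 and 61.4 CPM in KO (log2 fold change -0.15, SE 0.26, adjusted p = 0.751). Dnah11, an outer arm motor too, had 36.4, 43.7 and 33.3 CPM in WT and 27.3, 47.2 and 47.6 CPM in KO. Both had KO1 as their lowest library. Among the inner arm motors, Dnah12 had 48.0, 59.3 and 40.2 CPM in WT and 26.8, 58.9 and 52.5 CPM in KO (log2 fold change -0.24, SE 0.35, adjusted p = 0.700). Dnah2 had 35.5, 38.6 and 31.3 CPM in WT and 22.7, 41.2 and 38.7 CPM in KO (log2 fold change -0.16, SE 0.25, adjusted p = 0.738). In Dnah12 and Dnah2, as in the other heavy chains, KO1 was below the lowest WT library. Dnah3 had 94.3, 111 and 80.3 CPM in WT and 56.2, 126 and 119 CPM in KO, and Dnah6 had 108, 139 and 106 CPM in WT and 76.5, 148 and 142 CPM in KO. In Dnah2, Dnah3, Dnah6 and Dnah11, KO2 and KO3 were above all WT libraries while KO1 was below them.

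**Figure D2:**
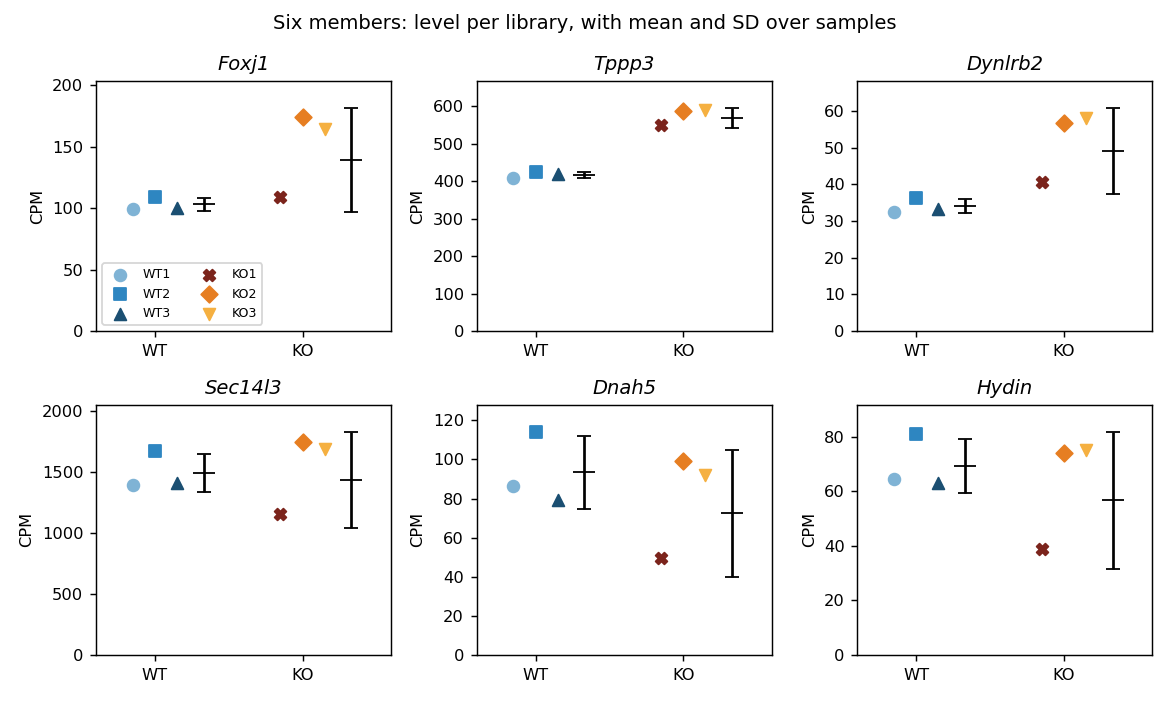
CPM per library (y axis, from 0) for 6 genes, with points for the libraries of each genotype and a bar with whiskers for mean and SD over samples (3 WT; 2 KO, with KO2 and KO3 averaged into 1). In Tppp3 and Dynlrb2 every KO library is above every WT library, whereas in Dnah5, Hydin and Sec14l3 KO1 is the lowest of the 6.

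Of the smaller dynein subunits, Dynlrb2, a roadblock-type light chain, had 32.6, 36.3 and 33.4 CPM in WT and 40.8, 56.8 and 58.0 CPM in KO. The genotypes did not overlap, and the log2 fold change was 0.53 (SE 0.16, adjusted p = 0.111). Dnali1, an inner arm light intermediate chain, had 35.7, 35.3 and 35.0 CPM in WT and 34.3, 49.7 and 48.3 CPM in KO, so that KO1 was just below the WT libraries and the others above. The outer arm intermediate chains Dnai1 (15.6, 15.9 and 14.4 CPM in WT; 13.5, 20.1 and 19.9 CPM in KO) and Dnai2 (27.2, 27.6 and 24.9 CPM; 22.1, 34.8 and 33.5 CPM) likewise had KO1 below all WT libraries and KO2 and KO3 above them.

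Among the docking and assembly genes, Ccdc114, of the outer arm docking complex, had 23.3, 23.8 and 21.7 CPM in WT and 22.5, 35.0 and 34.8 CPM in KO. Armc4, of the same complex, had 10.2, 10.8 and 8.32 CPM in WT and 7.44, 11.1 and 11.5 CPM in KO. KO2 and KO3 were above all WT libraries in both, but KO1 was within the WT range for Ccdc114 and below it for Armc4. Zmynd10, needed for arm preassembly in the cytoplasm, had 19.9, 19.6 and 17.9 CPM in WT and 20.7, 29.2 and 28.7 CPM in KO, with no overlap between genotypes. Lrrc6, which acts at the same step, had 8.45, 8.72 and 7.14 CPM in WT and 5.95, 10.2 and 10.3 CPM in KO, with KO1 again the lowest.

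Ccdc39 and Ccdc40 form the ruler that spaces the arms. Ccdc39 had 44.3, 50.3 and 36.1 CPM in WT and 26.4, 51.1 and 57.0 CPM in KO, and Ccdc40 had 44.6, 47.2 and 40.6 CPM in WT and 37.0, 58.2 and 56.7 CPM in KO. Drc1, of the nexin link, had 27.0, 30.0 and 23.9 CPM in WT and 23.9, 36.3 and 36.2 CPM in KO. For these 3 genes KO1 was below all WT libraries, by a narrow margin in Drc1, and KO2 and KO3 were above them. Ccdc113, an axonemal coiled-coil gene, had 15.5, 17.6 and 13.8 CPM in WT and 16.4, 23.1 and 24.2 CPM in KO, with KO1 in the WT range.

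The central pair gene Hydin had 64.3, 80.8 and 62.9 CPM in WT and 38.9, 73.8 and 75.2 CPM in KO. KO1 was below all WT libraries and KO2 and KO3 lay among them, and the log2 fold change was -0.28 (SE 0.30, adjusted p = 0.592). Spag16, also of the central pair, had 24.6, 23.7 and 19.9 CPM in WT and 17.6, 28.04 and 28.3 CPM in KO. Spag17, a central pair gene too, had 25.7, 28.7 and 22.5 CPM in WT and 18.0, 33.2 and 32.2 CPM in KO. In both, KO1 was below all WT libraries and KO2 and KO3 were above them. Of the radial spoke head genes, Rsph1 had 34.7, 37.1 and 31.5 CPM in WT and 41.1, 56.6 and 56.5 CPM in KO, with no overlap (log2 fold change 0.51, SE 0.16, adjusted p = 0.120). Rsph9 had 16.9, 17.5 and 15.2 CPM in WT and 18.9, 21.8 and 22.4 CPM in KO, without overlap as well. Rsph4a had 30.0, 36.3 and 28.0 CPM in WT and 19.6, 39.8 and 38.7 CPM in KO, with KO1 the lowest library and KO2 and KO3 the highest.

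Tppp3, of the tubulin polymerization-promoting family, was the gene that rose. It had 409, 424 and 418 CPM in WT (417 ± 7.56, SD, n = 3) and 550, 585 and 589 CPM in KO (569 ± 26.6, SD, n = 2 samples). No KO library came near the WT range, and KO1 stood near KO2 and KO3. The log2 fold change was 0.45 (SE 0.06, adjusted p = 0.0447 by edgeR), and the call was kept in 9 of 18 alternative analyses, with adjusted p between 7.31e-15 and 0.537. Leaving out any 1 WT library ended the call, with log2 fold changes of 0.44 to 0.46 in fits that called 0 genes in all. Without KO1, which leaves 1 KO sample, the log2 fold change was 0.49. With an offset for gene length and GC content it was 0.27 (adjusted p = 0.237 by edgeR), in a fit that also called 0 genes. Tubb4b, a beta-tubulin of cilia, had 153, 149 and 166 CPM in WT and 194, 176 and 177 CPM in KO, again without overlap, and reads could be shared with related beta-tubulin genes. The tektins, filament proteins of the doublets, had KO2 and KO3 above all WT libraries. Tekt1 had 21.2, 21.7 and 19.1 CPM in WT and 19.7, 29.5 and 29.9 CPM in KO, and Tekt4 had 15.6, 14.5 and 12.5 CPM in WT and 13.4, 21.3 and 20.4 CPM in KO, with KO1 in the WT range. Tekt2 had 16.9, 16.7 and 16.3 CPM in WT and 17.4, 23.0 and 26.9 CPM in KO, with no overlap.

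Sec14l3, of a lipid-binding protein family, was the most abundant of the genes, with 1398, 1676 and 1416 CPM in WT and 1160.1, 1746 and 1692 CPM in KO. KO1 was the lowest library and KO2 and KO3 the highest. Pifo, a cilium-associated gene, had 11.5, 13.5 and 11.8 CPM in WT and 13.05, 18.98 and 19.5 CPM in KO, with KO1 within the WT range. Per kb of exon, mean WT levels ran from 538 CPM per kb in Sec14l3, 226 in Tppp3, 74.7 in Tubb4b and 61.3 in Dynlrb2 down to 0.218 in Mcidas.

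Levels differed within the KO genotype. The level in KO2 and KO3 was above that in KO1 for 34 of the 35 genes, with Tubb4b the exception, against 50.8% of all genes. The same held for 88 of 92 other motile cilium genes and 26 of 28 intraflagellar transport genes, both described below. Across the 35, the ratio of KO2 and KO3 to KO1 had a median of 1.55 and ran from 0.910 in Tubb4b to 2.19 in Dnah3. Its median over the heavy chains was 1.89. KO2 and KO3 were both above all WT libraries for 30 genes (85.7%), which occurred in 29.5% of all genes, and below all of them for 0 (29.6% of all genes). KO1 was below all WT libraries for 19 (54.3%; 37.4% of all genes), above them for 9 (37.8% of all genes) and among them for 7. Both patterns held at once in 14 genes (40.0%), 4 of them heavy chains, against 4.15% of all genes. The whole KO range lay above the WT range for 9 genes (25.7%), namely Tppp3, Tubb4b, Rfx2, Ccno, Dynlrb2, Rsph1, Rsph9, Zmynd10 and Tekt2, a share near the 20.0% of all genes, and below it for 0 (20.7% of all genes).

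Without KO1, all 35 genes had a positive log2 fold change, with a median of 0.37 and 0.18 for the heavy chains, and 0 passed adjustment, beside 17 genes in all. At an unadjusted p up to 0.05 that fit had 18 of the 35 (51.4%), all higher, against 23.5% of all genes (12.2% higher, 11.3% lower). With KO1 as the only KO sample, 13 genes were positive, the median was -0.17 and -0.63 for the heavy chains, and 0 passed adjustment, beside 0 genes in all, so that no member could be set apart by that count. At an unadjusted p up to 0.05 there were 17 (48.6%; 4 higher, 13 lower), against 26.5% of all genes (12.5% higher, 14.01% lower). In both fits the lone KO sample is assumed to vary like the WT samples. The direction for the heavy chains thus turned on which KO sample was used.

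WT3 and KO1 also differed from the other libraries in other lists. Squamous epithelium genes (17) reached a sum of 4817 CPM in WT3 and 9187 CPM in KO1, while the other 4 libraries had 53.0 to 70.7 CPM. The 35 genes summed to 3098, 3556 and 3047 CPM in WT1 to WT3 and 2813, 4035 and 3954 CPM in KO1 to KO3. Both squamous-rich libraries thus had the lowest sum of their genotype, but WT3 was only just below WT1. Sec14l3 gave much of each sum and was higher in WT3 (1416 CPM) than in WT1 (1398 CPM). WT3 was below the mean of WT1 and WT2 for 31 of the 35 genes, against 50.8% of all genes. It was also below that mean for 85 of 92 other motile cilium genes and 25 of 28 intraflagellar transport genes. Erythroid genes (8) summed to 2413 to 5551 CPM in WT, 3984 CPM in KO1 and 19094 and 19838 CPM in KO2 and KO3. Club cell genes (14), a secretory type of the same airway lining, summed to 33119 to 38441 CPM in WT and 43921, 58078 and 58027 CPM in KO. Scgb1a1 alone gave 23360 to 27438 CPM of the WT sums and 32061 to 42765 CPM of the KO sums. Of the 14, 0 passed adjustment (2.28% of all genes). Fold changes were positive for 12 and negative for 2, with 52.2% of all genes positive. Alveolar type 2 genes (12) summed to 23430.0 to 24563 CPM in WT and 34965, 33210.3 and 33060.2 CPM in KO, and 4 of the 12 rose (Sftpc, Sftpd, Sftpb and Sftpa1; 1.38% of all genes). Before adjustment 10 were higher and 0 lower, against 13.9% and 13.4% of all genes. The part of these differences in the cilium results, the rise of Tppp3 included, was not tested. With a term for the squamous level in the fit, 6 of the 35 were called, all higher (17.1%, against 6.43% of all genes higher and 5.21% lower). That term is high in WT3 and KO1 alone, among 3 WT and 2 KO samples, so the fit does not decide that part. With KO2 and KO3 kept as separate samples, 5 of the 35 were called, namely Tppp3, Rfx2, Dynlrb2, Rsph1 and Rsph9, all higher (14.3%, against 9.81% of all genes higher, 9.07% lower and 18.9% in either direction).

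**Figure D3:**
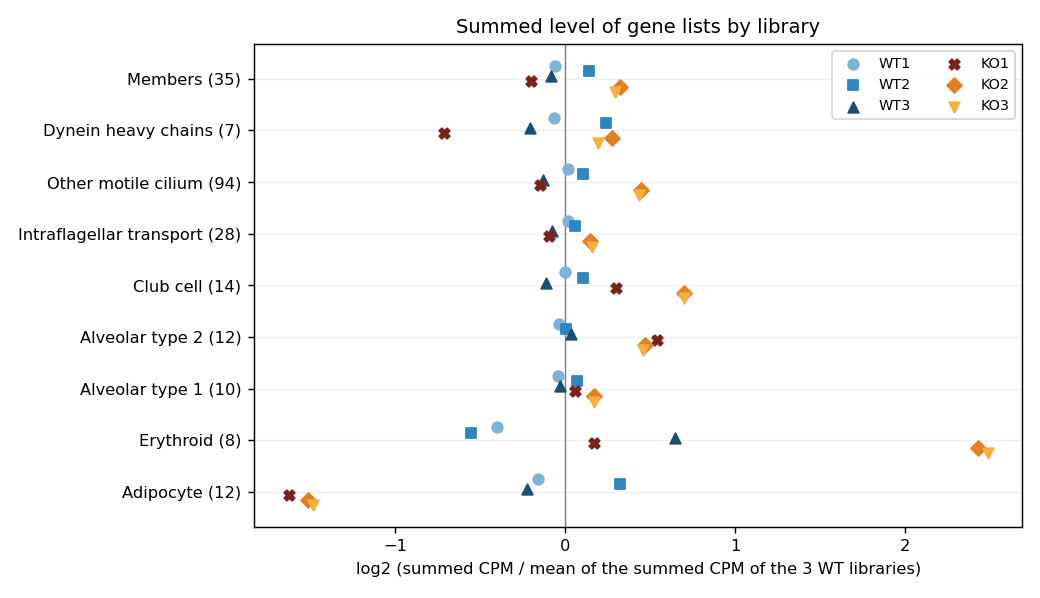
Summed CPM of gene lists per library, as log2 over the mean of the 3 WT libraries (x axis), with the number of genes of each list in brackets. KO1 is below the WT mean and KO2 and KO3 are above it for the 35 member genes and their dynein heavy chains. The same holds for the other motile cilium genes and the intraflagellar transport genes, whereas the adipocyte list is lower in all KO libraries.

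The log2 fold change of the genes went with their length. Across the 35 genes, Spearman's correlation of summed exon length with the log2 fold change was -0.82, and across 18524 genes it was -0.33, as a description of genes that share the same libraries. Below 2 kb the members' median was 0.36 (9 genes, 0.18 for all genes), at 2 to 4 kb 0.25 (10 genes, 0.10), at 4 to 8 kb 0.06 (6 genes, -0.02), and from 8 kb -0.15 (10 genes, -0.16). The 7 heavy chains, Hydin, Rfx3 and Spag17 make up the longest group. In that group the median level relative to WT was -0.62 in KO1 (-0.21 for all genes of that length), 0.24 in KO2 (-0.14) and 0.15 in KO3 (-0.14). The ratio of KO2 and KO3 to KO1 had a Spearman correlation of 0.71 with length in the 35 genes and 0.06 in all genes. With a length and GC offset in the fit, the correlation was -0.44 in the members and 0.01 in all genes, the heavy chain median was 0.07, and 0 members passed, among 0 genes in all.

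**Figure D4:**
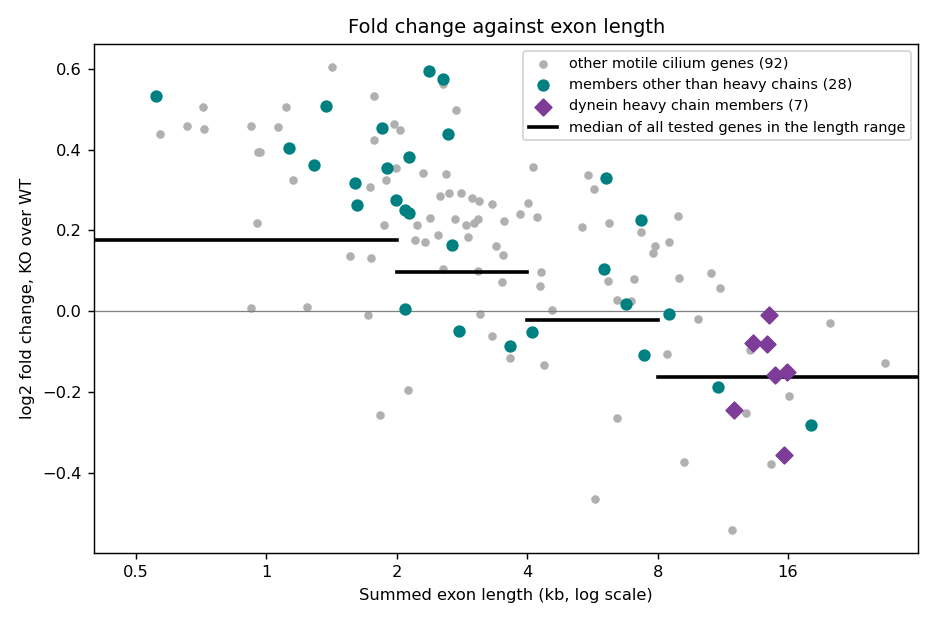
Log2 fold change of KO over WT (y axis) against summed exon length in kb (x axis, log scale) for the 35 members and 92 other motile cilium genes, with black lines for the median of all tested genes in each length range. Members below 2 kb lie above 0, and the 7 heavy chains lie below 0, from -0.01 to -0.36, with the line for all genes of their length at -0.16.

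A wider list of 94 other motile cilium genes, of which 92 passed the filter on low counts, was tested in the same fit. Of these 1 rose (1.09%, against 1.38% of all genes) and 0 fell. At an unadjusted p up to 0.05, 12 were higher (13.04%, against 13.9% of all genes) and 0 lower. Fitted values were positive for 73 (79.3%; 52.2% of all genes), with a median of 0.20. The gene that rose was Spef1, of the central apparatus, with 41.8, 41.8 and 38.7 CPM in WT and 54.9, 59.7 and 60.0 CPM in KO (log2 fold change 0.50, SE 0.07, adjusted p = 0.0455). Its call was lost when any 1 WT library was left out. Scaling by library size alone, the edgeR exact test and the length and GC offset ended the call too. The most abundant were Cfap65 (137, 137 and 114 CPM in WT; 97.1, 188 and 186 CPM in KO), Cfap43 (132, 139 and 122 CPM; 118, 154 and 160 CPM) and Ccdc153 (80.8, 87.5 and 73.5 CPM; 87.6, 130 and 133 CPM). In all 3, KO2 and KO3 were above all WT libraries, and KO1 was the lowest library in Cfap65 and Cfap43.

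The 28 intraflagellar transport genes, which serve motile and primary cilia alike, had a median log2 fold change of 0.02. By edgeR 0 passed the adjusted test, with 5 at an unadjusted p up to 0.05 (17.9%, against 27.3% of all genes; 4 higher, 1 lower). DESeq2 called 3 (10.7%, against 21% of all genes). KO2 and KO3 were above KO1 in 26 of the 28 (92.9%), a direction shared with the members. The median excess was 1.15 times, less than the 1.55 of the members, although this difference was not tested. Ift172, the most abundant, had 87.7, 89.4 and 81.4 CPM in WT and 76.1, 86.4 and 87.2 CPM in KO. Traf3ip1 had 75.2, 75.2 and 68.2 CPM in WT and 63.5, 95.9 and 99.6 CPM in KO, and Kif3b had 61.4, 65.5 and 60.9 CPM in WT and 57.2, 63.1 and 62.6 CPM in KO.

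Exons of 13 of the 35 genes overlap a gene on the other strand, and whether counting used the strand was not stated, so their counts are uncertain. The longest overlaps were those of Dnah3 with Lyrm1 (1506 bases), Ccdc39 with Ttc14 (1256), Spag17 with Wdr3 (820) and Dnah11 with Cdca7l (642).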

How the data were processed

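Lung RNA was profiled in 3 WT and 3 KO libraries. The authors trimmed reads, aligned them to GRCm38 and deposited raw counts per gene; the submitters' processing notes name Trimmomatic 0.36, STAR 2.5.3a, Picard 2.9.0 and HTSeq 0.6.0. The annotation release and strand setting are not given in the sources used here. All library columns were used, with 0 left out. Genes were tested with edgeR 4.0.16 (R 4.3.3): filterByExpr, TMM scaling, the quasi-likelihood test of KO against WT, and Benjamini-Hochberg adjustment over all genes tested, with calls at 0.05. KO2 and KO3 were summed. DESeq2 1.42.0, other scalings, filters and designs, and leaving out libraries were tried as 18 alternatives. Exon lengths came from GENCODE annotation for 97.5% of gene identifiers, and the fit was tested on simulated data. The depth of 59134950 to 71354388 counts puts 3 counts at 0.0410 to 0.0514 CPM, a limit for counting error only. Every member is given with its counts or CPM. Fold changes with SE and adjusted p were printed for the 5 regulators, each called member and the 6 highest and 6 lowest values, and the other motile cilium and intraflagellar transport lists are represented by their 3 most abundant genes and those called. The rule covered all other lists, but lists of other cell types are given mainly as sums. Members and lists were chosen with earlier results of these data known.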

Additional observations from a re-analysis of the deposited data

How the results depend on the processing

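The main analysis called 426 genes, 1 of the 35 members (Tppp3), 1 other motile cilium gene and 0 intraflagellar transport genes. With the 6 libraries kept separate these counts were 3402, 5, 12 and 4, with DESeq2 3919, 5, 12 and 3, and with the squamous term 2171, 6, 15 and 4. A minimum of 10 counts in every library gave 937, 1, 1 and 2, the edgeR exact test 209, 0, 0 and 0, library size alone 306, 0, 0 and 0, and the length and GC offset 0 in each. Replicate numbers did not pair the samples, since same-numbered WT and KO libraries had deviations correlated at -0.66, 0.69 and -0.78. With the replicate block and 6 separate libraries the counts were 1157, 1, 2 and 2, and with the block and the length and GC offset together 7, 0, 0 and 0. Leaving out 1 library gave 0 (without WT1, WT2 or WT3 in turn) to 418 genes, 0 to 1 member and 0 to 1 other motile cilium gene; without KO1 there were 17 genes and 0 members. Without KO replicates 2 and 3 the counts were 0, 0 and 0, and the heavy chain median was -0.63, against -0.15.

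Signs turned for 6 of the 13 members given with a fold change, SE and adjusted p, and those 6 had not passed the test. With the replicate block and offset the log2 fold changes were Rfx3 0.11, Dnah2 0.12, Dnah9 0.16, Dnah12 0.083 and Hydin 0.059, and with the offset alone Rfx3 0.043, Dnah2 0.030 and Dnah9 0.070. Leaving out 1 library in turn gave Rfx3 -0.29 to 0.10, Dnah2 -0.24 to 0.18, Dnah5 -0.47 to 0.032, Dnah9 -0.25 to 0.17, Dnah12 -0.38 to 0.18 and Hydin -0.35 to 0.10, the positive value coming from the fit without KO1 each time. The cause was not tested. Tppp3 was positive in all 18 alternatives, from 0.27 to 0.49. Mcidas had the fewest counts, 24 to 63 per library, and the next lowest count of a member was 159, in Ccno.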
